A study of Mus musculus with 12 samples.

Results

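Iron handling in the spleen was followed through 8 genes: Slc40a1, which encodes the iron exporter ferroportin, Hmox1, Blvrb, Tfrc, Slc11a1, Slc11a2, Cp and Lcn2. They were taken as every probe set whose platform gene symbol was one of these names, which gave 22 of the 22690 probe sets on the array, for 8 of 12393 genes. Of these, 3 belonged to the array maker's control sets for Tfrc and were not tested, so that 19 of the 22626 probe sets in the fit were members. The genes were picked for how they differed, or did not differ, after lipopolysaccharide in these same arrays. Their LPS responses are therefore given below as values with standard errors and without a p-value, and only the comparisons between genotypes were tested. Those comparisons read the same arrays, and the difference of the LPS responses is built from the responses themselves. Their p-values and intervals are therefore not free of how the genes were picked.

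The study asked how DUSP1, a phosphatase that switches off MAP kinases, shapes the response to lipopolysaccharide (LPS), the endotoxin of Gram-negative bacteria. There were 4 groups of 3 mice, with 1 Affymetrix MOE430A 2.0 array of total spleen RNA per mouse. These were DUSP1-/- mice 6 h after LPS at 10 µg per g body weight into the peritoneum, DUSP1+/+ mice given the same LPS, DUSP1-/- mice with no treatment and DUSP1+/+ mice with no treatment. The untreated mice were not described as having received a vehicle injection, and strain, age and sex are not given in the sources used here, nor is the design of the DUSP1 deletion. The groups are called knockout LPS, wild-type LPS, knockout control and wild-type control. A value is an intensity on the authors' linear scale, and a difference is on the log2 scale with the standard error of the fit.

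In the spleen, red pulp macrophages engulf old red cells, heme oxygenase 1 opens the heme ring, biliverdin reductase reduces the pigment, and the iron set free is stored in ferritin or leaves the cell through ferroportin. Ferroportin is the only known cellular exporter of iron in mammals. Inflammation is known to hold iron in macrophages, through hepcidin, which sends ferroportin to degradation, and through lower ferroportin transcription after Toll-like receptor signals. Divalent metal transporter 1 (Slc11a2) moves iron into cells and out of endosomes, natural resistance-associated macrophage protein 1 (Slc11a1) moves metal out of the phagosome, transferrin receptor 1 (Tfrc) takes up transferrin iron, ceruloplasmin (Cp) oxidises exported iron, and lipocalin 2 (Lcn2) binds bacterial siderophores.

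Several arrays stood apart. The Dusp1 probe set read 4963, 2948 and 4996 in knockout LPS spleens, against 2248, 2142 and 2116 in wild-type LPS spleens, and 677, 1528 and 1443 in knockout controls, against 479, 1354 and 627 in wild-type controls. Dusp1 signal was thus no lower under the knockout label, and whether its probes lie inside the deleted part is not stated, so knockout names the label throughout and every direction between genotypes rests on it. In wild-type controls 2 and 3 the X-inactivation transcript Xist read 35 and 47 on its brightest probe set, against 1101 to 3949 in the other arrays, and the Y-linked Eif2s3y read 316 and 53, against 7 to 10. The mean log2 intensity of 7 pancreas genes was 11.91 and 9.01 in knockout controls 1 and 3 and 12.98 in wild-type control 1, against 4.15 to 5.66 in the rest. That of 9 red cell precursor genes was 9.98 in knockout control 1 and 8.85 in wild-type control 2, against 5.39 to 7.61 in the rest. Without the 3 arrays high in pancreas genes, knockout control 2 was the only knockout control, and without the 2 arrays low in Xist, wild-type control 1 was the only wild-type control. A lone array was assumed in such fits to vary like the other groups, so a lost or gained call there reflects fewer arrays as well as other values. In a whole spleen, fewer cells of a type and less RNA per cell cannot be told apart.

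Slc40a1 was the member with the largest difference between LPS and control. On probe set 1417061_at it read 80, 139 and 203 in knockout LPS spleens, against 2684, 440 and 1800 in knockout controls. The same probe set read 46, 25 and 24 in wild-type LPS spleens, against 3608, 2738 and 1580 in wild-type controls. Every LPS spleen was below every control spleen of its genotype, and the wild-type LPS readings lay under the medians of their arrays, 53, 49 and 47. The difference was -3.29 ± 0.62 in knockout spleens, or 9.8-fold lower after LPS, and -6.37 ± 0.62 in wild-type spleens, or 82.7-fold lower (n = 3 each). In wild-type spleens this was the lowest log2 difference of all 22626 probe sets, and in knockout spleens it ranked 35th from the bottom.

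The other Slc40a1 probe set, 1448566_at, gave the same picture with a smaller gap between genotypes. It read 50, 98 and 139 in knockout LPS spleens, against 2416, 1118 and 867 in knockout controls. It read 39, 26 and 27 in wild-type LPS spleens, against 1335, 2443 and 863 in wild-type controls. The groups did not overlap in either genotype, and the differences were -3.92 ± 0.49 in knockout spleens, 15.1-fold lower after LPS, and -5.55 ± 0.49 in wild-type spleens, 46.9-fold lower. These ranked 18th and 2nd from the bottom of all probe sets. Over the 12 arrays, each probe set centred on its own mean, the 2 profiles differed by a root mean square of 0.68 log2 units.

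The probe sets parted most in knockout control 2. That array read 440 on 1417061_at, the lowest of the 6 control spleens, and 1118 on 1448566_at, where knockout control 3 and wild-type control 3 were lower. It also carried the highest mean for 11 liver genes, 9.88, and the highest for 7 lung genes, 7.06, and their part in the low reading was not tested. Without it the knockout difference on 1417061_at was -4.07, and on 1448566_at it was -4.04. Without the 3 arrays high in pancreas genes, which left knockout control 2 as the only knockout control, the values were -1.75 and -3.67. Without the 2 wild-type controls low in Xist, the wild-type differences were -6.90 and -5.47.

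**Figure D1:**
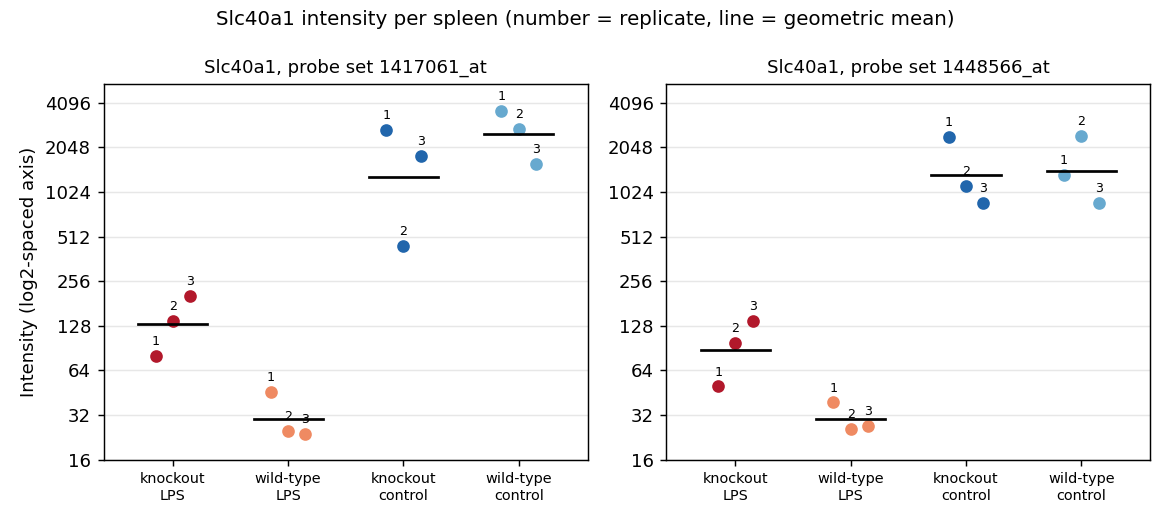
Intensity of the 2 Slc40a1 probe sets in each spleen on a log2-spaced axis, with the replicate number above each point and a bar at the geometric mean of each group. All 6 LPS spleens lie below all 6 control spleens on both probe sets, and the wild-type LPS spleens, at 24 to 46 and 26 to 39, lie below the knockout LPS spleens, at 80 to 203 and 50 to 139.

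After LPS, the spleens labelled knockout kept more Slc40a1 signal than wild-type spleens in every pair of arrays, but the difference did not pass the test over all probe sets. The geometric mean on 1417061_at was 131 in knockout LPS spleens and 30.2 in wild-type LPS spleens, a difference of 2.12 ± 0.62 with a 95% interval from 0.75 to 3.49 (limma adjusted p = 0.254). On 1448566_at the geometric means were 88.0 in knockout LPS spleens and 30.1 in wild-type LPS spleens, a difference of 1.55 ± 0.49 with an interval from 0.46 to 2.63 (adjusted p = 0.308). Over all alternatives run, the adjusted p of these differences ran from 0.0114 to 0.693 and from 0.0515 to 0.813, and the lowest value of the first came with array quality weights. The mean of 7 lung genes was 6.97, 4.64 and 6.21 in knockout LPS spleens, against 5.00, 4.58 and 4.63 in wild-type LPS spleens, and its part was not tested. Among controls the difference between knockout and wild-type was -0.96 ± 0.62 and -0.088 ± 0.49, with overlapping readings and adjusted p = 1 for both.

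The LPS response itself differed between genotypes by 3.08 ± 0.88 log2 units on 1417061_at (interval 1.14 to 5.01, adjusted p = 0.571) and by 1.63 ± 0.70 on 1448566_at (interval 0.10 to 3.17, adjusted p = 0.904). No probe set of the whole array passed in that comparison, where the smallest adjusted p was 0.164 and 1230 probe sets had an unadjusted p under 0.05. Without the 3 arrays high in pancreas genes the values were 4.36 (adjusted p = 0.0504) and 1.92 (adjusted p = 0.387), but these rest on knockout control 2 alone, the array that read 440 on 1417061_at.

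Among markers of resident macrophages, the cells that carry most ferroportin in the spleen, more genes fell than rose after LPS. Of 16 genes written, 15 were measured, and none read 0 (the lowest reading was 11, in Cd163). Of these, 2, Cd163 and Spic, are also counted among the pathway genes. Their summed intensity was 14864 to 20333 in knockout LPS spleens, against 19622 to 23860 in knockout controls, and 12238 to 13532 in wild-type LPS spleens, against 22133 to 26088 in wild-type controls. The sums overlapped between LPS and control in knockout spleens and did not in wild-type spleens. After LPS, 0 rose and 3 fell in knockout spleens, with a median difference of -0.45, where 5.54% of all genes rose and 9.71% fell. In wild-type spleens 1 rose and 5 fell, with a median of -0.85, where 3.93% of all genes rose and 4.16% fell. The one that rose was Marco, a scavenger receptor, by 1.07 (adjusted p = 0.0489). Those that fell in wild-type spleens were Mrc1 (-2.91), Cd163 (-2.72), Cd5l (-2.715), Vcam1 (-1.76) and Csf1r (-1.56). Those that fell in knockout spleens were Cd163 (-1.90), Cd5l (-1.44) and Csf1r (-0.88). The sums did not overlap between genotypes after LPS, although no gene of the list passed there. The part of these markers in the Slc40a1 result was not tested.

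The genes whose profile over the 12 arrays was nearest to that of Slc40a1 on 1417061_at, by root mean square distance of centred log2 values among 8098 genes above the 40th percentile, were Abcg3 (1.23), Cavin2 (1.31), Cav1 (1.37), Kazald1 (1.39) and Hpgd (1.39). All lay farther away than the other Slc40a1 probe set. Caveolin 1 (Cav1), the coat protein of membrane caveolae, had geometric means of 68.0 in knockout LPS and 28.4 in wild-type LPS spleens, and 214 in knockout and 238 in wild-type controls. Cavin2, another caveola protein, had 30.0 in knockout LPS and 41.1 in wild-type LPS spleens, and 545 in knockout and 486 in wild-type controls. Hpgd, which inactivates prostaglandins, had 234 in knockout LPS and 131 in wild-type LPS spleens, and 856 in knockout and 1098 in wild-type controls.

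Hmox1, which encodes the inducible heme oxygenase, was lower after LPS in wild-type spleens and overlapped with controls in knockout spleens. It read 902, 1575 and 1515 in knockout LPS spleens, against 1721, 1144 and 1460 in knockout controls. It read 577, 429 and 866 in wild-type LPS spleens, against 1721, 1372 and 1319 in wild-type controls. Knockout readings overlapped between LPS and control, with a difference of -0.14 ± 0.30. Wild-type readings did not, and the LPS spleens were lower by a difference of -1.29 ± 0.30, or -1.52 without the 2 controls low in Xist. Between genotypes after LPS the groups did not overlap, and Hmox1 was higher in knockout spleens by 1.11 ± 0.30 (interval 0.46 to 1.76). This did not pass over all probe sets (adjusted p = 0.202, and 0.0707 to 0.665 over the alternatives), nor did the difference of the responses, 1.15 ± 0.42 (adjusted p = 0.797).

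Blvrb, the biliverdin reductase that is abundant in red cells, read 684, 1587 and 864 in knockout LPS spleens, against 5079, 1236 and 1146 in knockout controls. It read 542, 1116 and 652 in wild-type LPS spleens, against 1045, 2270 and 1629 in wild-type controls. The ranges overlapped in both genotypes, with differences of -0.98 ± 0.57 in knockout and -1.10 ± 0.57 in wild-type spleens. The highest readings, 5079 and 2270, came from knockout control 1 and wild-type control 2, the arrays highest in red cell precursor genes. Without them the differences were -0.28 in knockout and -0.83 in wild-type spleens.

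Tfrc, which red cell precursors carry in large amounts, varied more between spleens than between groups. On 1452661_at it read 558, 279 and 548 in knockout LPS spleens, against 2593, 612 and 180 in knockout controls, and 462, 233 and 253 in wild-type LPS spleens, against 466, 1518 and 111 in wild-type controls. The differences were -0.58 ± 1.00 in knockout and -0.51 ± 1.00 in wild-type spleens, and all ranges overlapped. The same knockout control 1 and wild-type control 2 were again highest, as they were on 1422966_a_at, with 478 and 191, and on 1422967_a_at, with 91 and 33. Without those arrays the differences on 1452661_at were 0.41 in knockout and 0.40 in wild-type spleens. The control set at the 3' end of Tfrc, left out of the fit, read 149 and 67 in those arrays and 12 to 27 in the others.

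Slc11a1, the metal transporter of the phagosome membrane, was the steadiest member. It read 403, 589 and 369 in knockout LPS spleens, against 468, 353 and 507 in knockout controls. It read 452, 427 and 344 in wild-type LPS spleens, against 420, 381 and 465 in wild-type controls. The differences were 0.02 ± 0.22 in knockout spleens, with a 95% interval from -0.46 to 0.50, and -0.055 ± 0.22 in wild-type spleens, and differences within such an interval were not detectable with 3 arrays per group. Between genotypes after LPS the difference was 0.13 ± 0.22 (adjusted p = 0.973).

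Slc11a2, the gene of divalent metal transporter 1, was higher after LPS on 2 of its 3 probe sets. On 1426441_at it read 79, 129 and 112 in knockout LPS spleens, against 51, 40 and 28 in knockout controls, and 51, 65 and 51 in wild-type LPS spleens, against 32, 41 and 41 in wild-type controls. The groups did not overlap in either genotype, with differences of 1.44 ± 0.25 in knockout and 0.55 ± 0.25 in wild-type spleens. On 1452078_a_at it read 175, 150 and 170 in knockout LPS spleens, against 154, 72 and 69 in knockout controls, and 111, 126 and 130 in wild-type LPS spleens, against 69, 92 and 105 in wild-type controls. Here the differences were 0.85 ± 0.29 in knockout spleens, with an overlap at knockout control 1, and 0.48 ± 0.29 in wild-type spleens, with none.

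The third probe set of Slc11a2 went the other way. On 1417584_at it read 80, 81 and 74 in knockout LPS spleens, against 133, 115 and 81 in knockout controls, and 70, 75 and 73 in wild-type LPS spleens, against 83, 81 and 80 in wild-type controls. The differences were -0.46 ± 0.18 in knockout spleens and -0.16 ± 0.18 in wild-type spleens, where LPS and control did not overlap. The sources used here do not say which transcripts of Slc11a2 each probe set reads. Between genotypes after LPS, knockout spleens were higher without overlap by 0.92 ± 0.25 on 1426441_at (interval 0.36 to 1.48, adjusted p = 0.227, and 0.0457 to 0.613 over the alternatives) and by 0.43 ± 0.29 on 1452078_a_at (adjusted p = 0.801), while 1417584_at overlapped.

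Lcn2, a siderophore-binding protein of the acute phase, had the largest positive difference among the members. It read 3210, 3594 and 2874 in knockout LPS spleens, against 531, 272 and 184 in knockout controls. It read 3472, 4595 and 2824 in wild-type LPS spleens, against 98, 487 and 129 in wild-type controls. Every LPS spleen was above every control, by 3.43 ± 0.55 or 10.8-fold in knockout and by 4.28 ± 0.55 or 19.4-fold in wild-type spleens, and by 5.18 in wild-type spleens without the controls low in Xist. These values ranked 88th and 20th from the top of all probe sets. Between genotypes after LPS the groups overlapped, with a difference of -0.15 ± 0.55 (adjusted p = 0.995). Neutrophils store lipocalin 2, and the 12 neutrophil genes measured had a mean log2 intensity of 6.80 to 7.50 in knockout LPS spleens, against 7.04 to 8.38 in knockout controls, and 7.29 to 7.69 in wild-type LPS spleens, against 7.05 to 8.98 in wild-type controls. None of the 12 passed after LPS in either genotype, and the part of neutrophils in the Lcn2 values was not tested.

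Cp, whose protein oxidises iron as ferroportin releases it, was measured by 7 probe sets. On 1417494_a_at, the brightest, it read 418, 546 and 794 in knockout LPS spleens, against 197, 568 and 199 in knockout controls, and 864, 494 and 302 in wild-type LPS spleens, against 251, 403 and 137 in wild-type controls. The differences were 1.01 ± 0.53 in knockout and 1.07 ± 0.53 in wild-type spleens, with overlap in both. Over all 7 probe sets they ran from 0.061 to 1.91 in knockout spleens, where LPS and control did not overlap on 1417495_x_at, 1417496_at and 1455393_at, and from -0.095 to 1.49 in wild-type spleens, where all overlapped. Between genotypes after LPS the differences ran from 0.037 to 0.43, with no adjusted p under 0.954.

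The knockout control highest in liver genes was also highest in Cp. Liver makes most of the body's ceruloplasmin, and the mean of 11 liver genes was 4.40, 9.88 and 7.06 in knockout controls 1, 2 and 3, where Cp read 197, 568 and 199. After LPS the liver mean was 6.69, 9.31 and 8.51 in knockout spleens and 6.75, 8.46 and 6.26 in wild-type spleens, against 4.51, 7.61 and 6.39 in wild-type controls. No liver gene passed after LPS in either genotype. The highest Cp reading of all, 864, came from wild-type LPS 1, whose liver mean was 6.75. The part of liver transcripts in the Cp values was not tested. With knockout control 2 as the only knockout control left, the knockout difference was -0.005 on 1417494_a_at and ran from -0.31 to 1.40 over the 7 probe sets, and without knockout control 2 it ran from 0.25 to 2.16.

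Lcn2 and Cp each hold a C/EBP motif before a start site in the RefSeq promoter table. The 250 bases before that start are shown for this reason. The sequences are from RefSeq on GRCm38.p6, read 5′ to 3′ on the strand of the gene. Capitals mark the match to TTGCNNAA, on the gene's strand in Lcn2 and on the opposite strand in Cp. They lie 216 to 209 bases before the start in Lcn2, at chr2:32387740-32387989 on the minus strand, and 70 to 63 bases before it in Cp, at chr3:19956999-19957248 on the plus strand, 1 of 2 starts listed for Cp.
Lcn2: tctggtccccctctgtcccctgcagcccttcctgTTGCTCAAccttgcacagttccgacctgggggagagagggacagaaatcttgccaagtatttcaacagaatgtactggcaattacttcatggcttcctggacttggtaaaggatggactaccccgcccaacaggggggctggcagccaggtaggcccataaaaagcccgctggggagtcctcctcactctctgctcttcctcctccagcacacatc
Cp: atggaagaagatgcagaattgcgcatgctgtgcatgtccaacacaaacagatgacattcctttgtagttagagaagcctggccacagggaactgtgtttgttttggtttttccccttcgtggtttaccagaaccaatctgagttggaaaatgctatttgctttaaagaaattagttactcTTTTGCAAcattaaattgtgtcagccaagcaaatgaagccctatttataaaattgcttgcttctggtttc
Only the 250 bases before each start were searched, here and for the other motifs. Of 32851 promoter windows in the table, 9.56% hold this motif there on either strand. A STAT motif (TTCNNNGAA, 7.02% of windows) and an antioxidant response motif (TGACNNNGC, 10.2%) had no match in the 8 windows of Lcn2, Cp, Blvrb, Tfrc and Slc11a1, and the C/EBP motif had none in the other 6. The 3 motifs were picked from a larger set after their matches were seen, and the genes were picked for their LPS response. The matches therefore describe these windows only. Slc40a1, Hmox1 and Slc11a2 were not matched in the table.

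**Figure D2:**
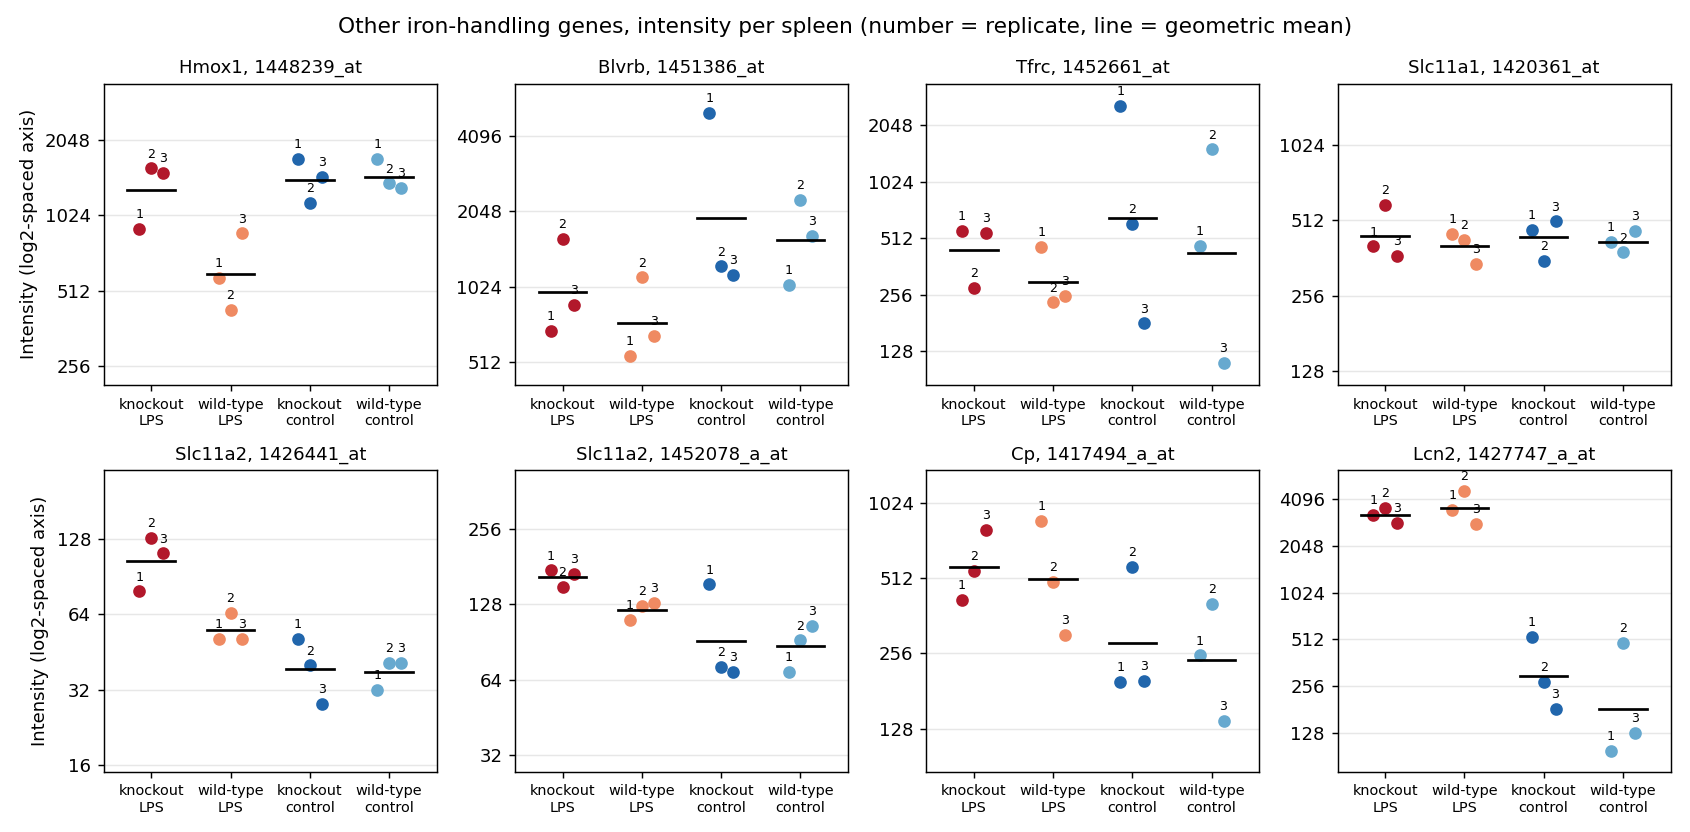
Intensity per spleen of the other 7 genes, Slc11a2 with 2 of its probe sets, on log2-spaced axes with the replicate number above each point and a bar at the geometric mean. Lcn2 separates LPS from control spleens completely, at 2824 to 4595 against 98 to 531. The highest Blvrb and Tfrc readings are those of knockout control 1 and wild-type control 2.

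Counted over the 19 member probe sets, which share genes and are not independent, LPS and control readings did not overlap for 5 higher and 2 lower in knockout spleens, where 11% and 15.2% of all probe sets did so. In wild-type spleens there were 3 higher and 4 lower, where 9.6% and 12.6% of all probe sets did so. Since the LPS response chose the genes, these counts describe them only. The median difference of the members was 0.061 in knockout spleens, against -0.046 over all probe sets, and -0.055 in wild-type spleens, against -0.016 over all.

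**Figure D3:**
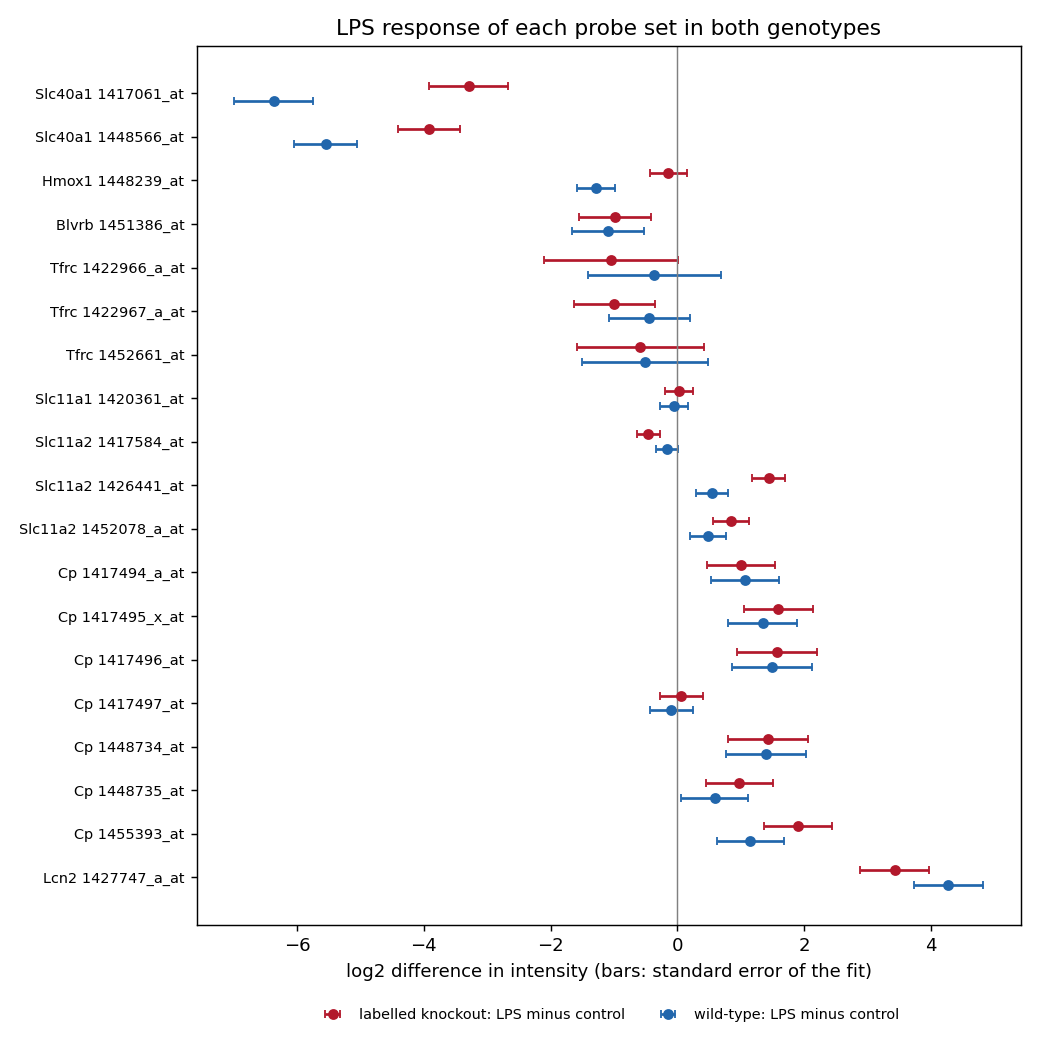
LPS minus control difference in log2 units for each of the 19 member probe sets, with bars for the standard error of the fit, in knockout spleens (upper point of each pair) and wild-type spleens (lower point). Both Slc40a1 probe sets lie lowest and Lcn2 highest, while Slc11a1 lies at 0.02 and -0.055.

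Between genotypes after LPS, none of the 19 member probe sets passed an adjusted p of 0.05 in the limma fit, where 72 of all probe sets, 0.318%, did. At an unadjusted p under 0.05 there were 4 of the 19, and 2001 of all. The groups did not overlap for 5 of the 19, all higher in knockout spleens (both Slc40a1 probe sets, Hmox1 and 2 of Slc11a2), where 8.08% of all probe sets were higher and 8.77% lower without overlap. Among controls none of the 19 passed and none was free of overlap, where 1.45% of all probe sets were higher in knockout and 1.01% lower. There 1 of the 19 had an unadjusted p under 0.05, Slc11a2 on 1417584_at at 0.40 ± 0.18, against 337 of all probe sets, none of which passed. In the difference of the LPS responses 4 of the 19 had an unadjusted p under 0.05 and none passed.

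**Figure D4:**
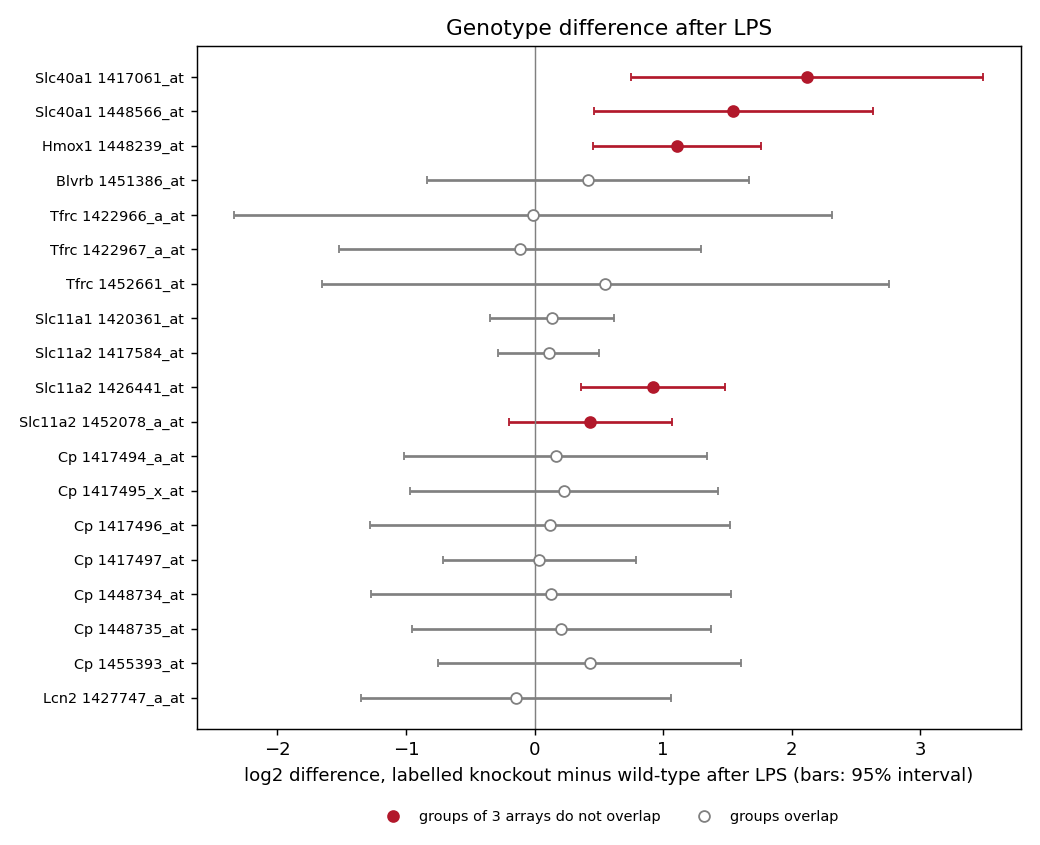
Knockout minus wild-type difference after LPS in log2 units for the 19 member probe sets, with the 95% interval of the fit. The intervals of both Slc40a1 probe sets, Hmox1 and Slc11a2 on 1426441_at lie above 0 before adjustment over all probe sets, and Lcn2 is at -0.15.

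Other genes of the iron pathway were read from 5 lists of 54 genes, of which 45 were measured by a probe set that names the gene alone. The lists were written with earlier results of these data known, so their counts and adjusted p-values are not free of that knowledge. After LPS 2 rose and 6 fell in knockout spleens, 17.8% of the list against 15.2% of all genes, of which 5.54% rose and 9.71% fell. In wild-type spleens 1 rose and 4 fell, 11.1% against 8.09% of all genes, of which 3.93% rose and 4.16% fell. The median difference was -0.057 over the list and -0.064 over all genes in knockout spleens, and -0.041 and -0.029 in wild-type spleens. None passed between genotypes after LPS, where 0.363% of all genes did (2 of the list at an unadjusted p under 0.05), nor among controls or in the difference of the responses (0 of the list in each at that level). The knockout count was 2 without the array knockout LPS 1, and the wild-type count was 2 without the controls low in Xist.

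Among genes that handle heme and hemoglobin, 2 of 12 fell in each genotype. Cd163, the macrophage receptor for haptoglobin-bound hemoglobin, read 14, 20 and 15 in knockout LPS spleens, against 48, 65 and 70 in knockout controls, and 11, 14 and 14 in wild-type LPS spleens, against 38, 148 and 109 in wild-type controls. It fell by 1.90 ± 0.41 in knockout spleens (adjusted p = 0.013) and fell by 2.72 ± 0.41 in wild-type spleens (adjusted p = 0.0037), with LPS readings near the bottom of the scale. The wild-type difference was -1.56 without the controls low in Xist (adjusted p = 0.035) and -3.30 without the 3 arrays high in pancreas genes (adjusted p = 0.000682). Lrp1, a receptor for hemopexin-bound heme, fell by 1.40 ± 0.26 in wild-type spleens (adjusted p = 0.00948; without the controls low in Xist it was as large, -1.43, with adjusted p = 0.0771), and its difference in knockout spleens was -0.72 ± 0.26 (adjusted p = 0.104). Blvra, the other biliverdin reductase, fell by 0.97 ± 0.26 in knockout spleens (adjusted p = 0.0339, a call lost in 15 of 25 alternatives), and its difference in wild-type spleens was -0.88 ± 0.26 (adjusted p = 0.0791).

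The heme transporter of the phagolysosome, Slc48a1, did not pass on its brightest probe set, at -1.28 ± 0.41 in knockout and -1.25 ± 0.41 in wild-type spleens (adjusted p = 0.0669 and 0.104). Its other probe set, 1450410_a_at, did in both, at -1.14 (adjusted p = 0.0398) and -1.42 (adjusted p = 0.024). Spic, the transcription factor of red pulp macrophages, had 1.09 ± 0.51 in knockout and 0.61 ± 0.51 in wild-type spleens, neither past the test. Its other probe set, 1418555_x_at, was brighter on average and had 0.25 in knockout and 0.37 in wild-type spleens, again neither past the test. The plasma scavengers haptoglobin (Hp) and hemopexin (Hpx), made in liver, did not pass, at 1.38 ± 0.76 and 2.77 ± 1.44 in knockout spleens and 2.04 ± 0.76 and 2.43 ± 1.44 in wild-type spleens.

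Iron storage gave no call among 6 measured genes. Ferritin heavy chain (Fth1) read 10504, 10355 and 9894 in knockout LPS spleens, against 9574, 5573 and 6370 in knockout controls, and 10354, 9859 and 10354 in wild-type LPS spleens, against 4985, 7465 and 7724 in wild-type controls. Every LPS spleen was above every control, but the differences of 0.55 ± 0.23 in knockout and 0.63 ± 0.23 in wild-type spleens did not pass (adjusted p = 0.148 and 0.144). The probe sets of ferritin light chain and transferrin also name other genes and were not used.

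Of 10 genes for iron uptake, binding and oxidation, 2 rose and 1 fell in knockout spleens and 1 rose in wild-type spleens. Slc39a14, a zinc and iron importer, read 291, 263 and 249 in knockout LPS spleens, against 53, 140 and 108 in knockout controls, and 383, 337 and 264 in wild-type LPS spleens, against 61, 77 and 120 in wild-type controls. It rose by 1.52 ± 0.35 in knockout spleens (adjusted p = 0.0164), a call lost in 3 of 25 alternatives. In wild-type spleens it rose by 1.97 ± 0.35 (adjusted p = 0.00776). Without the 3 arrays high in pancreas genes, which left knockout control 2 as the only knockout control, the knockout difference was 0.93. The other Slc39a14 probe set, 1425649_at, did not pass in knockout spleens, at 0.52 (adjusted p = 0.291). It passed in wild-type spleens, at 1.125 (adjusted p = 0.0378).

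Steap4, a metalloreductase of the endosome and plasma membrane, read 652, 814 and 853 in knockout LPS spleens, against 23, 365 and 47 in knockout controls, and 486, 472 and 252 in wild-type LPS spleens, against 39, 114 and 43 in wild-type controls. It rose by 3.39 ± 0.82 in knockout spleens (adjusted p = 0.0222), a call lost in 8 of 25 alternatives, among them the loss of any knockout LPS array. The size varied with the controls, at 4.55 without knockout control 2 and 1.07 with that control alone, without the 3 arrays high in pancreas genes. In wild-type spleens its difference was 2.75 ± 0.82 (adjusted p = 0.0798), although no LPS spleen overlapped a control. Its other probe set, 1425829_a_at, passed in both, at 3.02 in knockout (adjusted p = 0.00312) and 2.64 in wild-type spleens (adjusted p = 0.0104). Mcoln1, a lysosomal channel that releases iron, fell by 1.26 ± 0.28 in knockout spleens (adjusted p = 0.015), and its difference in wild-type spleens was -0.60 ± 0.28 (adjusted p = 0.287).

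Among 10 regulators of iron, 3 fell in knockout and 2 in wild-type spleens. Hfe, the hemochromatosis protein that takes part in the sensing of iron, read 109, 144 and 128 in knockout LPS spleens, against 602, 210 and 696 in knockout controls, and 130, 93 and 59 in wild-type LPS spleens, against 541, 536 and 567 in wild-type controls. It fell by 1.82 ± 0.41 in knockout (adjusted p = 0.0161, but -0.74 with adjusted p = 0.268 without the 3 arrays high in pancreas genes) and fell by 2.62 ± 0.41 in wild-type spleens (adjusted p = 0.00453; without the controls low in Xist it was as large, -2.60, with adjusted p = 0.0731). Its profile ranked 11th nearest to that of Slc40a1. Aco1, iron regulatory protein 1, fell by 1.24 ± 0.24 in knockout spleens (adjusted p = 0.00719), and its difference in wild-type spleens was -0.66 ± 0.24 (adjusted p = 0.147). Neo1, a receptor for hemojuvelin, fell by 0.85 ± 0.19 in knockout spleens (adjusted p = 0.0146). Its difference in wild-type spleens was -0.55 ± 0.19 (adjusted p = 0.124).

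Bmp2, a signal that induces hepcidin in the liver, fell by 1.72 ± 0.35 in wild-type spleens (adjusted p = 0.0154; without the controls low in Xist it was as large, -1.75, with adjusted p = 0.134), where it read 19, 18 and 15 after LPS, against 58, 58 and 54 in controls. In knockout spleens the Bmp2 difference was -0.87 ± 0.35 (adjusted p = 0.145). Bach1, a heme-sensing repressor of Hmox1, had 1.42 ± 0.42 in knockout spleens (adjusted p = 0.0512) and 0.37 ± 0.42 in wild-type spleens on 1440831_at. On this probe set it read 745, 834 and 1016 in knockout LPS spleens, against 649, 276 and 377 in wild-type LPS spleens. That was a difference of 1.08 ± 0.42 (adjusted p = 0.468). Its dimmer probe set, 1449311_at, passed in knockout spleens, at 1.07 (adjusted p = 0.0336). It did not pass in wild-type spleens, at 0.55 (adjusted p = 0.347). Nfe2l2, which encodes the activator of antioxidant genes NRF2, and Ireb2, iron regulatory protein 2, did not pass. Nfe2l2 had 0.46 in knockout spleens and 0.25 in wild-type spleens, and Ireb2 had -0.63 in knockout spleens and -0.42 in wild-type spleens. Hepcidin (Hamp), a liver hormone, read 196, 1264 and 476 in knockout LPS spleens, against 11, 378 and 86 in knockout controls, and 105, 701 and 94 in wild-type LPS spleens, against 13, 134 and 58 in wild-type controls. Its highest reading in each group came from the array with the highest liver mean, and its differences of 2.79 ± 1.32 in knockout and 2.03 ± 1.32 in wild-type spleens did not pass. None of 7 mitochondrial iron genes passed.

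**Figure D5:**
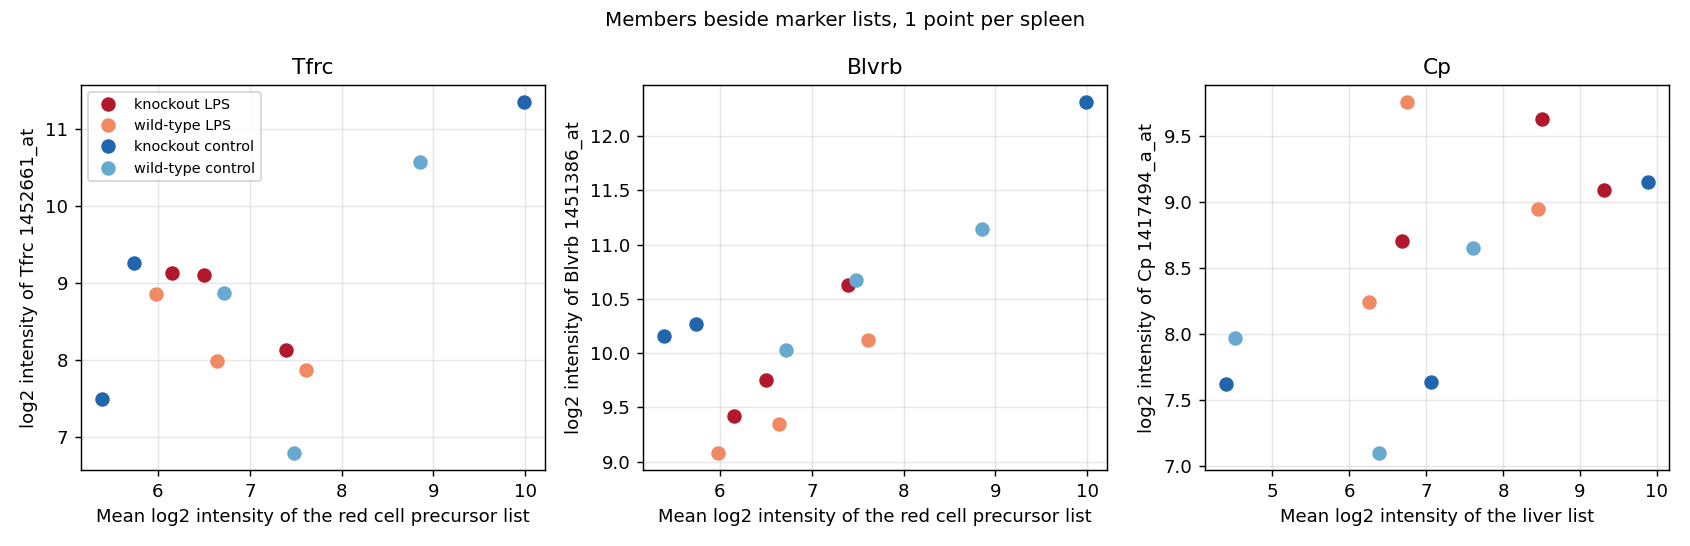
Member intensity against the mean log2 intensity of marker lists in the 12 spleens, 1 point per spleen and both axes on log2 scales. Blvrb and Tfrc are highest in the 2 spleens with the highest red cell precursor mean, 9.98 and 8.85, and Cp is shown beside the liver list.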

How the data were processed

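Spleen RNA of 12 mice, 5 µg each, was hybridised to MOE430A 2.0 arrays after labelling with the One Cycle kit. Per the submitters' processing notes, the authors' software was affy, with RMA as the summary method (version not given in the sources used here). The deposited values are intensities on a linear scale, whole numbers from 6 to 15228, 26.18% to 32.93% of them under 20 per array, with array medians of 47 to 64. Groups came from the labels, and separate mice stand for replicates.

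The intensities were put on the log2 scale. A model of 4 group means was fitted with limma 3.58.1 in R 4.3.3 (lmFit, eBayes, 8 residual and 2.722 prior degrees of freedom), two-sided, with Benjamini-Hochberg adjustment over 22626 probe sets and a threshold of 0.05. The 64 control probe sets were left out. GEO's platform annotation gave 1 gene for 20380 probe sets, several for 691 and none for 1555. A pathway gene stands for its brightest probe set that names it alone, over 12393 genes. Probe sets ending in _x_at were taken only where a gene had no other, even where they were brighter. Values after ± are standard errors. The number of arrays limits the precision.

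Members and gene lists were chosen with earlier results of these data known. All probe sets of the members are named. Of the pathway lists, each gene that passed was named, with 14 genes named in any case, 1 of them without a value because its probe sets name other genes too. Pairing was looked at on log2 values with each probe set's group mean subtracted, not on the array values themselves. On these deviations, same-numbered control spleens of both genotypes had correlations of 0.142, 0.136 and 0.277, from the data, not from the labels. Different-numbered spleens were not compared, so pairing is not shown. The replicate block changed no call between knockout and wild-type controls. The fit was tested on simulated data. Alternatives were 3 scalings, a floor of 20, a pseudocount of 16, a filter on dim probe sets at the 40th percentile, eBayes with trend, array weights, the compared groups alone, a replicate block, other probe set summaries and arrays left out. The set without the 2 arrays low in Xist was chosen after seeing the data.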

Additional observations from a re-analysis of the deposited data

Results flagged for a closer look

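Fech, the mitochondrial enzyme that inserts iron into heme, had LPS differences of opposite sign in the 2 genotypes (probe set 1418699_s_at), and neither passed the test. It read 1398, 1374 and 1965 in knockout LPS spleens, against 5459, 594 and 395 in knockout controls, and 627, 1175 and 895 in wild-type LPS spleens, against 606, 2537 and 2300 in wild-type controls. Every knockout LPS spleen was above the log2 mean of the knockout controls and every wild-type LPS spleen was below that of the wild-type controls. LPS and control readings overlapped in both genotypes. The LPS difference was 0.52 ± 0.86 in knockout spleens (adjusted p = 0.784) and -0.81 ± 0.86 in wild-type spleens (adjusted p = 0.722), and the difference between them, 1.33, did not pass in the limma fit (adjusted p = 1). Without the 3 arrays high in pancreas genes it was 2.86 (adjusted p = 0.0418), a value that rests on knockout control 2 as the only knockout control, assumed to vary like the other groups. The knockout control that read 5459 was the array highest in red cell precursor genes, and the part of these cells was not tested.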

How the results depend on the processing

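Of the values named here, none changed direction where it had been called. With array quality weights the member probe sets that passed between genotypes after LPS numbered 2 (Slc40a1 on 1417061_at, adjusted p = 0.0114, and Slc11a2 on 1426441_at, adjusted p = 0.0457) in place of 0, and the pathway genes 3 (Lrp1, Aco1 and Bach1) in place of 0. Pathway genes after LPS in wild-type spleens numbered 5, but 9 with array weights, 8 without the 3 arrays high in pancreas genes, 2 without the 2 controls low in Xist, and 4 to 7 with any 1 array left out. In knockout spleens they numbered 8, but 12 with array weights, 5 with a floor of 20, 1 with the compared groups alone, and 2 to 9 with any 1 array left out. In the difference of the responses 1 passed without the arrays high in pancreas genes, and 0 otherwise. The Slc40a1 difference on 1417061_at in knockout spleens was -3.29, but -1.75 without those arrays, and -4.07 to -2.76 with any 1 array left out. In wild-type spleens it was -6.37, with -6.70 to -6.11 over the same, and the gap between the probe sets there, -0.82, was -1.15 to -0.52. On log2 deviations from the group means, 3 of 15 same-numbered pairs correlated above 0.1 (range -0.584 to 0.629). These were pairs of LPS with control spleens or of LPS spleens of both genotypes. The highest was knockout LPS 2 with wild-type LPS 2. Different-numbered pairs were not compared, so whether replicate numbers pair spleens was not settled. With the replicate block, Hpx (adjusted p = 0.0386) and Hamp (0.013) also passed in knockout spleens, for 10 calls, and Hp (0.0283) and Steap4 (0.0482) in wild-type spleens, for 7. It changed no call in the comparisons between genotypes, where 0 members passed. Shifting the arrays to 1 median moved the share of calls that were higher after LPS to 60.7% in knockout spleens, against 40.4%, and to 62.8% in wild-type spleens, against 51.4%, with the median of all probe sets at 0.171 in place of -0.046 and 0.104 in place of -0.016. Cyclic loess gave 51.8% in knockout spleens. Readings near the bottom of the scale, such as Cd163 and Slc40a1 in wild-type LPS spleens, limit the size of a measured fall. The filter on dim probe sets removed 1 Cp and 1 Tfrc probe set, and the difference of the responses cannot be had from the compared groups alone, so these have no value.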
